A study of Bos taurus with 16 samples.

Results

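The MARCH genes encode the membrane-associated RING-CH ubiquitin ligases. The rows of the deposited count table named MARCH1 to MARCH9 and MARCH11, the older symbols of this family, were taken as its members, 10 of the table's 36824 entries. The reference lists all 10 under newer symbols, MARCHF1 to MARCHF9 and MARCHF11. RNA was measured in cattle (Bos taurus), in cumulus cells, which surround the oocyte, and in granulosa cells, which line the wall of the follicle. Follicles came from the ovary ipsilateral to the corpus luteum or from the contralateral one, which with the cell types gives 4 groups of 4 libraries. The corpus luteum is the gland that forms after ovulation and secretes progesterone. The side is the only treatment the labels give, and the labels used here name no breed, age or drug. Each library was made from a pool of 3 animals, so differences between single animals are averaged within a library. The labels do not say which animals entered which pools, and p values measure the spread between these pools.

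A MARCH ligase holds a RING-CH finger, which binds a ubiquitin-conjugating enzyme, and most members carry transmembrane segments that place this finger at the surface of an organelle. There the ligase transfers ubiquitin to other membrane proteins, which are then withdrawn from the cell surface, sorted to lysosomes or degraded by the proteasome. Roles of single members are known mainly from human and mouse cells. MARCH1 and MARCH8 are close relatives, as are MARCH2 and MARCH3, and MARCH4, MARCH9 and MARCH11 form a further group. MARCH5 sits in the outer mitochondrial membrane, MARCH6 in the endoplasmic reticulum, and MARCH7 lacks the transmembrane segments of the others.

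Total counts lay between 10.1 and 21.9 M reads per library. Levels are given in CPM, counts per M reads after TMM scaling of the libraries. A count of 0 allows up to 3 counts, or 0.135 to 0.317 CPM depending on the depth of the library, for counting error only. None of the 8 cumulus or 10 granulosa marker genes listed for this work could be found by name, so the labelled cell types could not be checked in that way. Of 13 oocyte markers, BCL2L10 and H1FOO were found, and their summed level was highest in contralateral cumulus library 4, at 204 CPM. They stood at 9.64 and 8.96 CPM in contralateral cumulus library 2, and at 5.55 and 5.25 CPM in contralateral granulosa library 3. Of 7 cilium markers 4 were found, with a summed level of 73.4 to 120 CPM in cumulus and 14.3 to 90.4 CPM in granulosa libraries. In cumulus libraries ARMC4 carried this sum, at 68.7 to 116 CPM, against 10.6 to 28.4 CPM in granulosa libraries. CFAP44, WDR63 and TTC25 reached at most 4.65 CPM in cumulus libraries, and all 3 were highest in contralateral granulosa library 3, at 32.1, 19.6 and 10.4 CPM. The part of these cells in the members' differences was not tested. The results below are also given without these libraries where this changes a call.

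The first comparison asked which members differ between cumulus and granulosa cells. Of the 10 members, 9 passed the filter on low counts in both cell types taken alone, and 9 of these 9 passed edgeR's quasi-likelihood test (adjusted p under 0.05 over all 18038 entries tested), 4 higher and 5 lower in cumulus cells. MARCH11 entered the fit only through the granulosa libraries, where it is high, so its call had to follow and is not counted as support. Over all entries 60.2% passed, 29.9% higher and 30.3% lower in cumulus cells. Unlike the 9, the shares and medians over all entries in this comparison include entries kept through a single cell type. The share among entries past the filter in both cell types alone was not computed. The median log2 fold change of the 9 was -0.32, against 0.03 for all entries tested, and the median size was 0.78 against 0.63. After TMM scaling, libraries of the 2 cell types did not overlap for 4 of the 9, MARCH1, MARCH3, MARCH6 and MARCH7, whereas 28% of all entries showed no overlap. For MARCH7 this depended on the scaling. Without these libraries, number 4 of contralateral cumulus and number 3 of contralateral granulosa cells, a setting chosen after seeing the data, MARCH9 of the 9 did not pass. With ipsilateral libraries alone 6 of the 9 passed, 2 higher and 4 lower in cumulus cells, where 44.3% of all entries passed, 20.7% higher and 23.6% lower. With contralateral libraries alone 4 passed, 2 higher and 2 lower, where 47.6% of all entries passed, 24.6% higher and 23% lower. In bulk libraries, fewer cells of a type and less RNA per cell cannot be told apart.

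**Figure D1:**
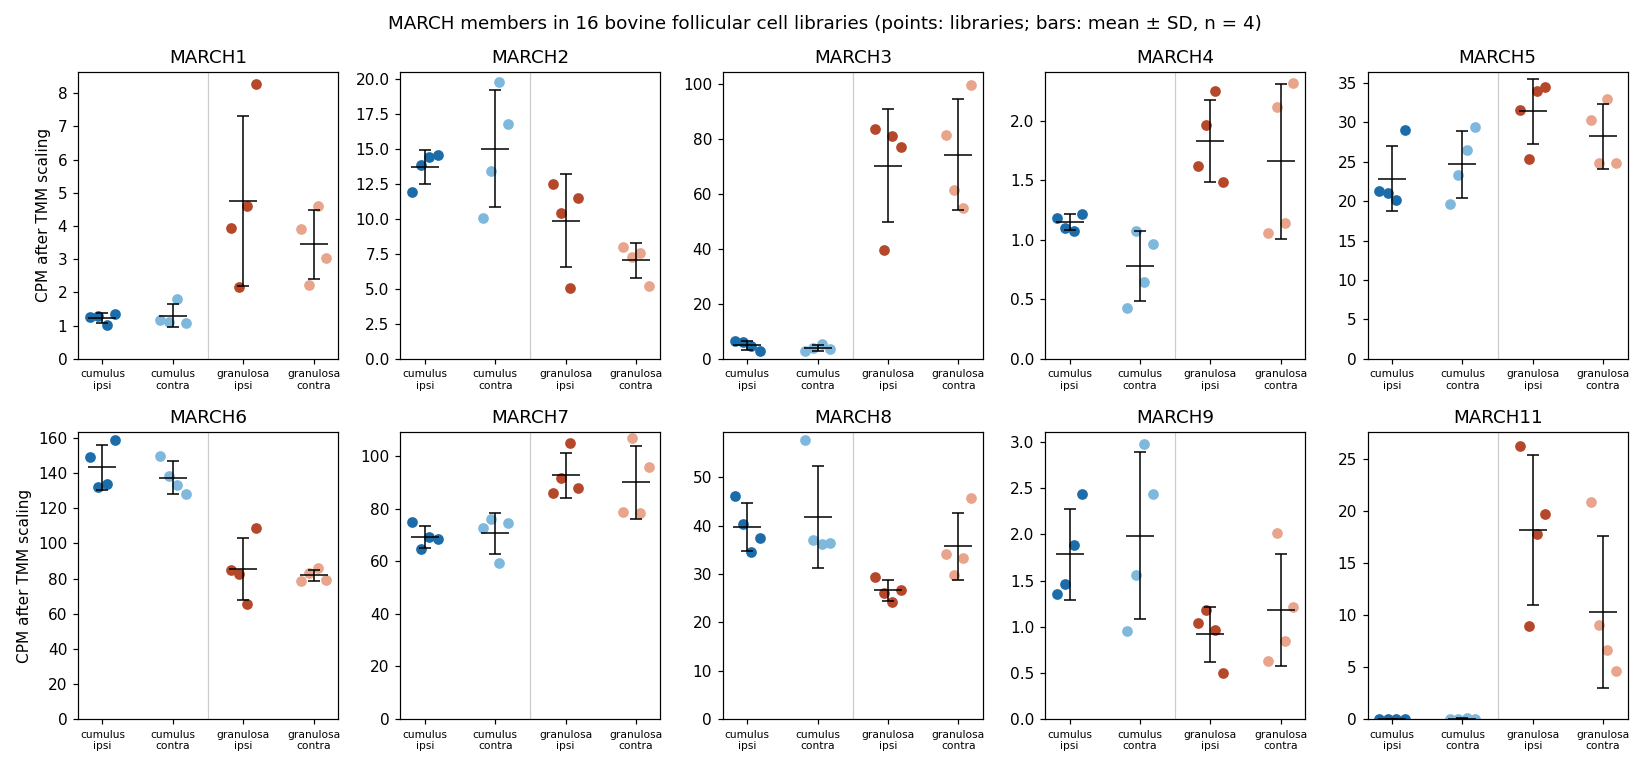
Levels of the 10 MARCH members in CPM after TMM scaling, on linear axes that start at 0, for ipsilateral (ipsi) and contralateral (contra) cumulus and granulosa libraries. Each point is a library and bars are mean ± SD of 4 libraries. MARCH11 lay at 0 in 7 of 8 cumulus libraries, MARCH3 reached at most 6.34 CPM in cumulus libraries and at least 39.6 CPM in granulosa libraries, and MARCH6 lay higher in every cumulus library than in any granulosa library.

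MARCH2 and MARCH3, which act on the sorting of endosomes in human and rodent cells, went in opposite directions. MARCH3 stood at 6.34, 6.14, 4.57 and 2.80 CPM in ipsilateral and at 2.66, 3.85, 5.38 and 3.46 CPM in contralateral cumulus libraries. In granulosa libraries it stood at 83.5, 39.6, 81.0 and 77.0 CPM on the ipsilateral and 81.5, 61.3, 54.9 and 99.6 CPM on the contralateral side. The lowest granulosa library thus lay above the highest cumulus library, with no overlap. MARCH3 was 16.6-fold lower in cumulus cells (log2 fold change -4.06 ± 0.23 SE, adjusted p = 5.12e-10 by edgeR). The fold difference was 14.3 with ipsilateral libraries alone and 19.1 with contralateral libraries alone. Of all entries tested, 15.1% differed at least 4-fold in either direction.

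MARCH2 stood at 11.9, 13.8, 14.4 and 14.6 CPM in ipsilateral and at 10.1, 13.4, 19.8 and 16.8 CPM in contralateral cumulus libraries. It stood at 12.5, 10.4, 5.07 and 11.5 CPM in ipsilateral and at 8.02, 7.30, 7.58 and 5.24 CPM in contralateral granulosa libraries. The cell types overlapped, and 6 of 8 cumulus libraries lay above every granulosa library. MARCH2 was 1.72-fold higher in cumulus cells (log2 fold change 0.78 ± 0.19 SE, adjusted p = 0.00177 by edgeR). With contralateral libraries alone the log2 fold change was 1.11 ± 0.25 SE (adjusted p = 0.00452). With ipsilateral libraries alone it was 0.46 ± 0.27 SE and did not pass (adjusted p = 0.194). The difference of these effects between the sides did not pass either (-0.62 ± 0.37 SE, adjusted p = 0.724 by edgeR).

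MARCH1 and MARCH8, ligases of endosomes and the plasma membrane that remove MHC class II and CD86 from immune cells in mice and humans, also went in opposite directions. MARCH1 had between 14 and 28 counts in each cumulus library and between 33 and 184 counts in each granulosa library. Its levels were 1.01 to 1.82 CPM in cumulus libraries (median 1.22) and 2.16 to 8.28 CPM in granulosa libraries (median 3.93). The cell types did not overlap, and ipsilateral granulosa library 4 held the highest value. MARCH1 was 3.21-fold lower in cumulus cells (log2 fold change -1.68 ± 0.28 SE, adjusted p = 7.95e-05 by edgeR), and without ipsilateral granulosa library 4 the log2 fold change was -1.48. Of 8 leukocyte markers only PF4, a platelet chemokine gene, was found by name. It stood at 0 to 0.243 CPM in cumulus libraries, with 0 in every ipsilateral one, and at 0.449 to 3.91 CPM in granulosa libraries. Its highest level, 3.91 CPM, was in contralateral granulosa library 1, where MARCH1 stood at 3.91 CPM, and it stood at 1.08 CPM in ipsilateral granulosa library 4. The part of leukocytes in the MARCH1 difference was not tested.

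MARCH8 ran from 34.6 to 57.7 CPM in cumulus libraries (median 37.2) and from 24.1 to 45.7 CPM in granulosa libraries (median 29.6). The cell types overlapped, since contralateral granulosa library 4 held 45.7 CPM, and the other 7 granulosa libraries lay below every cumulus library. MARCH8 was 1.32-fold higher in cumulus cells (log2 fold change 0.40 ± 0.12 SE, adjusted p = 0.00874 by edgeR). With ipsilateral libraries alone it was 1.48-fold higher (adjusted p = 0.00781). With contralateral libraries alone it was 1.19-fold higher and did not pass (adjusted p = 0.326). The difference between the sides did not pass (0.35 ± 0.24 SE, adjusted p = 0.765).

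MARCH4, MARCH9 and MARCH11 lower surface proteins such as CD4 or MHC class I when made in excess in human cells, and MARCH11 is known from developing spermatids of rodents. MARCH11 showed the widest separation of the members. In cumulus cells it had 0 counts in all 4 ipsilateral libraries and 2 counts in all in the contralateral ones, both in library 3. It had 406, 136, 278 and 439 counts in ipsilateral and 198, 171, 134 and 76 counts in contralateral granulosa libraries. Every granulosa library was above every cumulus library. No p is given, since MARCH11 passed the filter on low counts through the granulosa libraries alone. Against the floor of 3 counts over the ipsilateral cumulus group, MARCH11 was at least 331-fold lower in ipsilateral cumulus than in ipsilateral granulosa cells. On the contralateral side the depth-scaled ratio of granulosa to cumulus reads was 323, with a 95% exact counting interval from 88.9 to 2670. Over both sides, with 2 cumulus and 1838 granulosa counts, this ratio was 870, with an interval from 241 to 7192. These intervals cover counting error of the pooled reads only and leave out the spread between libraries.

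MARCH4 and MARCH9 were counted at low levels. MARCH4 had 8 to 22 counts in cumulus libraries and 10 to 40 counts in granulosa libraries. This gave 0.425 to 1.22 CPM (median 1.07) in cumulus and 1.06 to 2.31 CPM (median 1.79) in granulosa cells, with overlap. It was 1.84-fold lower in cumulus cells (log2 fold change -0.88 ± 0.29 SE, adjusted p = 0.0165 by edgeR). With 8 libraries, it did not pass on the ipsilateral side (adjusted p = 0.164) or on the contralateral side (adjusted p = 0.0962).

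MARCH9 had 16 to 46 counts in cumulus libraries and 6 to 38 counts in granulosa libraries. Its levels were 0.956 to 2.98 CPM (median 1.72) in cumulus and 0.495 to 2.01 CPM (median 0.999) in granulosa cells, with overlap. It was 1.80-fold higher in cumulus cells (log2 fold change 0.85 ± 0.34 SE, adjusted p = 0.0395 by edgeR). This call is the least stable of the 10, being lost in 13 of 25 alternatives. It did not pass without the filter on low counts (adjusted p = 0.0812) or without both libraries that stand apart (adjusted p = 0.112). Leaving out a single library ended the call for 9 of 16 libraries (adjusted p from 0.0542 to 0.0939), which were libraries 3 and 4 of each cumulus group, 3 and 4 of ipsilateral granulosa cells, and 1, 3 and 4 of contralateral granulosa cells. With ipsilateral libraries alone the log2 fold change was 0.96 (adjusted p = 0.103), and with contralateral libraries alone 0.75 (adjusted p = 0.254).

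MARCH6 is the member that sits in the endoplasmic reticulum, where it marks proteins such as squalene monooxygenase of sterol synthesis for degradation. It was counted most deeply of the members, with 29134 counts in all. It stood at 149, 132, 134 and 159 CPM in ipsilateral and at 150, 138, 133 and 128 CPM in contralateral cumulus libraries. In granulosa libraries it stood at 85.0, 82.6, 65.6 and 109 CPM on the ipsilateral and 78.9, 83.2, 85.8 and 79.4 CPM on the contralateral side. No granulosa library reached the lowest cumulus library. MARCH6 was 1.68-fold higher in cumulus cells (log2 fold change 0.75 ± 0.09 SE, adjusted p = 1.43e-06 by edgeR), and 1.67-fold and 1.70-fold higher with ipsilateral and contralateral libraries alone.

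MARCH5, the mitochondrial member, acts on proteins of mitochondrial fission and fusion. It ran from 19.6 to 29.5 CPM in cumulus libraries (median 22.3) and from 24.8 to 34.5 CPM in granulosa libraries (median 31.0), with overlap. It was 1.25-fold lower in cumulus cells (log2 fold change -0.32 ± 0.12 SE, adjusted p = 0.0260 by edgeR), the smallest difference of the 10. The call was lost when libraries were scaled by their totals alone (log2 fold change -0.24, adjusted p = 0.109) and with contralateral libraries alone (-0.18, adjusted p = 0.413). It was also lost without ipsilateral cumulus library 2 or 3, contralateral cumulus library 1 or contralateral granulosa library 3 (adjusted p from 0.05005 to 0.0553).

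MARCH7, also called axotrophin, is known from the nucleus and cytoplasm. It ran from 59.3 to 76.1 CPM in cumulus libraries (median 70.8) and from 78.4 to 107 CPM in granulosa libraries (median 89.8). The cell types did not overlap after TMM scaling, although the highest cumulus and the lowest granulosa library were close. By library totals alone they overlapped. Contralateral granulosa library 1 held 746 MARCH7 counts of 10.07 M, and contralateral cumulus library 2 held 1563 of 19.97 M. MARCH7 was 1.30-fold lower in cumulus cells (log2 fold change -0.38 ± 0.08 SE, adjusted p = 7.24e-04 by edgeR), and with contralateral libraries alone it did not pass (adjusted p = 0.0564).

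**Figure D2:**
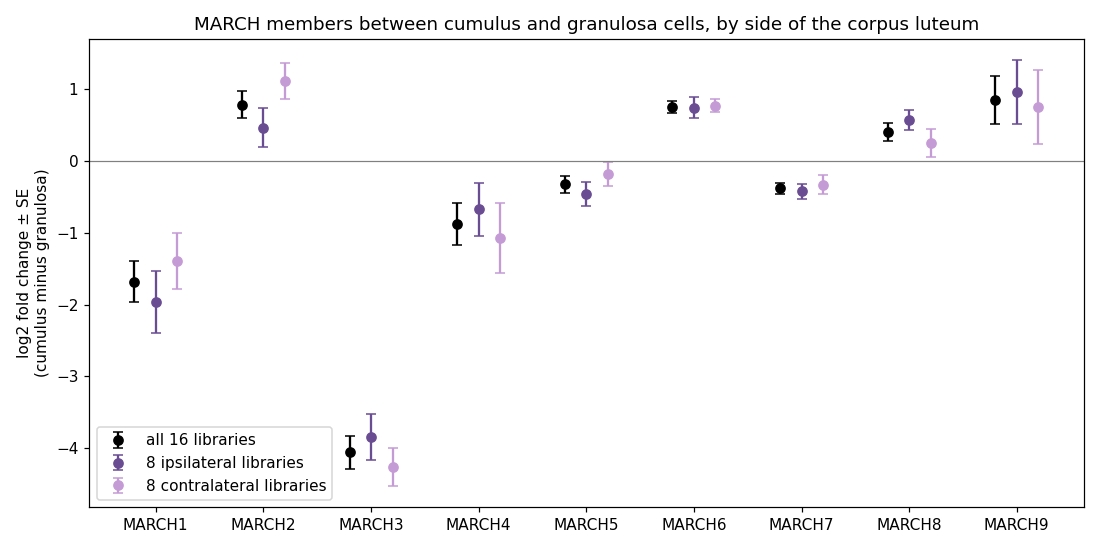
Log2 fold change, cumulus minus granulosa, for 9 MARCH members, with all 16 libraries (black) and with the 8 ipsilateral (dark) or 8 contralateral (light) libraries alone. Points are edgeR estimates, bars are ± SE and the line marks 0. MARCH11 is left out because its fitted value depends on how counts of 0 are treated. Each member kept its sign on both sides, and MARCH3 lay lowest, at -4.06 with all libraries.

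Ratios of reads within a library do not depend on the scaling of libraries. They are not corrected for transcript length, so only their change between libraries can be read. MARCH3 had 0.192 to 0.532 reads per MARCH2 read in cumulus libraries (median 0.280) and 3.80 to 19.0 in granulosa libraries (median 7.82). For MARCH1 and MARCH8 the ratio was 0.0203 to 0.0502 in cumulus libraries (median 0.0300) and 0.0667 to 0.309 in granulosa libraries (median 0.124). MARCH4 had 0.217 to 0.875 reads per MARCH9 read in cumulus libraries (median 0.536) and 1.05 to 3.00 in granulosa libraries (median 1.67). In each of these pairs every cumulus library lay below every granulosa library. Each pair sets a member lower in cumulus cells over a member higher there, and was set up with these results known. The separation thus follows largely from the choice of pairs and adds no support, and no test was made. How often other pairs of entries separate in this way was not computed.

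**Figure D3:**
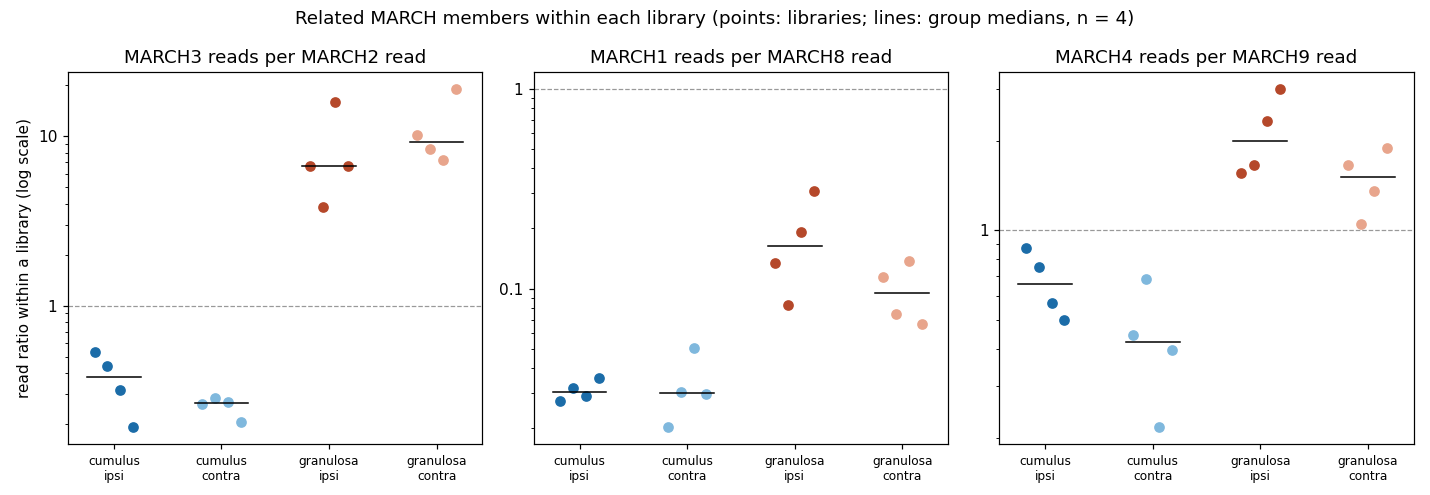
Reads of a MARCH member per read of its relative within each library, on log axes, for ipsilateral (ipsi) and contralateral (contra) cumulus and granulosa cells. Points are libraries, solid lines are medians of 4 libraries and the dashed line marks equal reads. In all 3 panels the 8 cumulus libraries lie below the 8 granulosa libraries, which follows largely from the choice of pairs. Reads are not corrected for transcript length, so the side of the dashed line does not show which member is more abundant.

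The summed level of the 10 members was 298 ± 15.1 CPM in cumulus cells and 338 ± 29.2 CPM in granulosa cells (n = 8 each, SD). It ran from 281 to 316 CPM in cumulus and from 290 to 376 CPM in granulosa libraries, with overlap. Spread over the 8 libraries of a cell type also differed between members. MARCH6 had a coefficient of variation of 7.73% in cumulus and 14.3% in granulosa cells, with 2.12% and 2.65% expected from counting alone. MARCH11 varied by 55.6% among granulosa libraries, where counting alone gives 6.60%. For MARCH1 the variation was 19.9% in cumulus cells, where counting alone gives 22.5%, and 47.4% in granulosa cells, where counting gives 11.8%. For MARCH4 it was 29.1% in cumulus cells, close to the 25.9% of counting, and 28.2% in granulosa cells, against 18.5%. The spread of MARCH1 and MARCH4 in cumulus cells was close to what their low counts give.

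By its labels the series compares follicles ipsilateral and contralateral to a corpus luteum, and the next comparisons set ipsilateral against contralateral libraries within each cell type. In cumulus cells 9 members were tested, since MARCH11 did not pass the filter on low counts there, and none passed. By edgeR, 0 of 16323 entries passed (0%), and 11% had an unadjusted p under 0.05, as did 0 of the 9 members. DESeq2 and limma-voom also called 0 members, and over all entries they called 120 and 0. The smallest adjusted p of a member was 0.645, for MARCH4. MARCH4 stood at 1.18, 1.10, 1.08 and 1.22 CPM in ipsilateral and at 0.425, 1.07, 0.648 and 0.965 CPM in contralateral cumulus libraries. These sides did not overlap, as was the case for 5.19% of all entries, and the log2 fold change was 0.54 ± 0.43 SE, with a 95% interval from -0.39 to 1.48.

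For the other members in cumulus cells the log2 fold change was 0.06 for MARCH6 (95% interval from -0.14 to 0.26) and -0.03 for MARCH7 (from -0.26 to 0.20). MARCH8 had -0.08 (from -0.45 to 0.29), and MARCH5 had -0.11 (from -0.48 to 0.25). MARCH2 had -0.14 (from -0.59 to 0.31). The intervals were wider for members with fewer counts, with 0.36 for MARCH3 (from -0.33 to 1.06), -0.08 for MARCH1 (from -0.89 to 0.73) and -0.14 for MARCH9 (from -1.04 to 0.76). A change of 1.5-fold either way lies within the intervals of MARCH1 and MARCH9. A 1.5-fold higher level on the ipsilateral side lies within those of MARCH3 and MARCH4, and a 1.5-fold lower level just within that of MARCH2.

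In granulosa cells all 10 members were tested and none passed. By edgeR, 0 of 16411 entries passed (0%), and 3.53% had an unadjusted p under 0.05. Of the members this was MARCH8. DESeq2 and limma-voom called 0 members, and over all entries they called 1 and 0. MARCH8 stood at 29.5, 26.1, 24.1 and 26.8 CPM in ipsilateral and at 34.1, 29.7, 33.3 and 45.7 CPM in contralateral granulosa libraries. The sides did not overlap, as was the case for 2.27% of all entries, and contralateral library 4 lay well above the other 3. The log2 fold change was -0.42 ± 0.16 SE (edgeR's unadjusted p = 0.0265, adjusted p = 0.9996), and without contralateral library 4 it was -0.28 (edgeR's unadjusted p = 0.0937). Over all alternatives the adjusted p of MARCH8 lay between 0.750 and 0.9999.

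MARCH11 stood at 26.3, 8.91, 17.8 and 19.7 CPM in ipsilateral and at 20.9, 9.05, 6.64 and 4.63 CPM in contralateral granulosa libraries. The sides overlapped, since contralateral library 1 lay above ipsilateral libraries 2, 3 and 4, and contralateral library 2 above ipsilateral library 2. The log2 fold change was 0.84 ± 0.48 SE (95% interval from -0.23 to 1.90, adjusted p = 0.9996 by edgeR). Without contralateral library 1 it was 1.43 and without contralateral library 4 it was 0.59, and neither passed after adjustment. MARCH1 had 0.46 ± 0.43 SE, and without ipsilateral library 4 its log2 fold change was 0.05. MARCH2 had 0.49 ± 0.31 SE, and the values of the other members lay between -0.37 (MARCH9) and 0.15 (MARCH5). MARCH3, which differed most between the cell types among members counted in both, stood at 70.3 ± 20.6 CPM in ipsilateral and at 74.3 ± 20.3 CPM in contralateral granulosa cells (SD, n = 4 each), with an interval from -0.65 to 0.50 on the log2 scale.

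**Figure D4:**
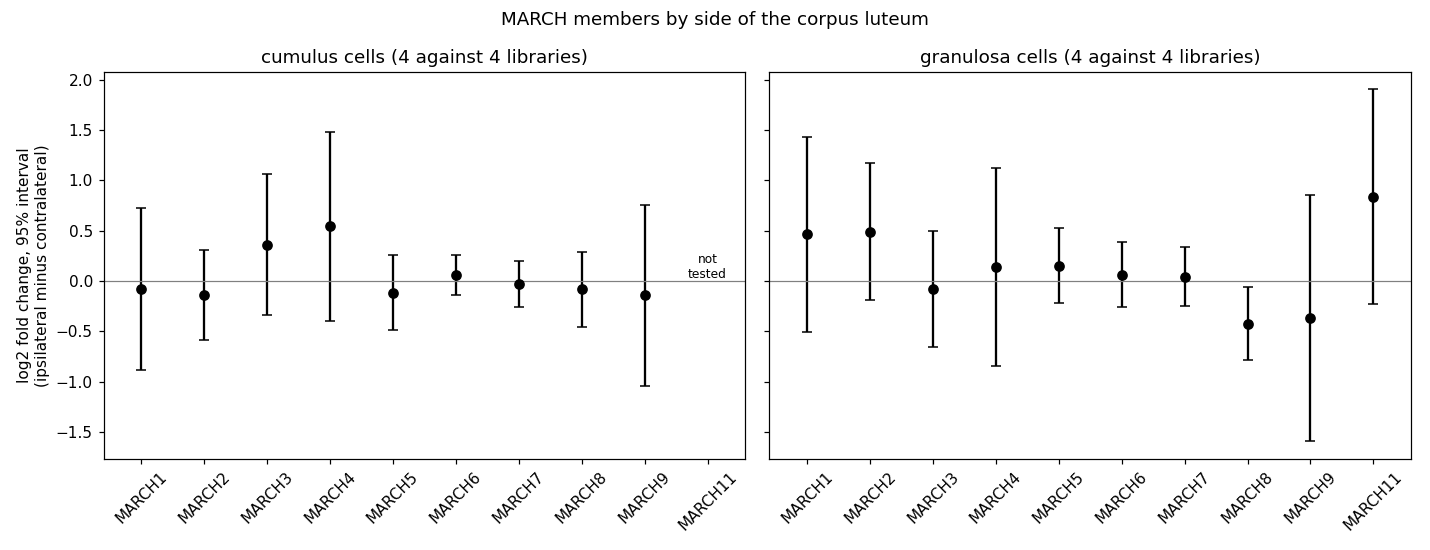
Log2 fold change, ipsilateral minus contralateral, of the MARCH members in cumulus cells (left) and granulosa cells (right), with 4 libraries per side. Points are edgeR estimates and bars are 95% intervals. MARCH8 in granulosa cells, at -0.42, is the only member whose interval leaves out 0, and it did not pass after adjustment. MARCH11 was not tested in cumulus cells.

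Whether the side difference itself differs between the cell types was tested in all 16 libraries. By edgeR, 0 of 18038 entries passed (0%), and 7.53% had an unadjusted p under 0.05, as did 0 of the 10 members. DESeq2 and limma-voom called 0 members here, and over all entries they called 1 and 0. The smallest adjusted p of a member was 0.724, for MARCH2. For MARCH11 no size is given, because its cumulus libraries were almost all at 0.

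MARCH10, a further RING-CH gene known from spermatids of rodents, is a row of the table that the choice of members left out. It stood at 9.55 ± 1.88 CPM in cumulus cells and at 5.81 ± 2.25 CPM in granulosa cells (n = 8 each, SD), with overlap. It was 1.64-fold higher in cumulus cells (log2 fold change 0.71 ± 0.23 SE, adjusted p = 0.0121 by edgeR). It did not pass between the sides in cumulus cells (adjusted p = 0.878) or in granulosa cells (adjusted p = 0.9996).

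Other genes of the pathway could be followed only in small part, since most entries of the table are Ensembl IDs that the reference does not name. Of 38 reported MARCH substrates and 41 ubiquitin-conjugating enzymes and partners of degradation at the endoplasmic reticulum, 0 were found by name. Of 58 other membrane or RING ligases 3 were found. ZNRF4 had 0 counts in all libraries. RNF149 stood at 17.7 ± 5.02 CPM in cumulus cells and at 18.3 ± 5.05 CPM in granulosa cells, and RNF133 at 1.51 ± 0.827 CPM in cumulus libraries and at 0.722 ± 0.8003 CPM in granulosa libraries (SD, n = 8 each). RNF149 did not pass (adjusted p = 0.850 by edgeR). RNF133 passed the filter on low counts through the cumulus libraries alone, so no p is given for it. A wider set, all 11 symbols that begin with RNF, TRIM or ZNRF, was taken after the names in the table had been seen. Of its 6 tested entries, RNF149, RNF212, RNF219 and TRIM56 passed the filter on low counts in both cell types alone. None of these passed the test, where 60.2% of all entries tested passed. Besides RNF133 the remaining tested entry was RNF225, with 10 to 54 counts in each cumulus library and 0 to 5 in each granulosa library. RNF225 passed the filter on low counts through the cumulus libraries alone, so no fold change or p is given.

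The named entries whose pattern was most like that of each member were sought among 773 with at least 160 counts, by Pearson's r of log2(CPM + 1) over the 16 libraries. These values describe the pattern only, and the points share the split into cell types, which alone gives a high r. Values within a cell type come from the same libraries that were used to pick the entries. Closest to MARCH3 were the septin genes SEPT9 (r = 0.98) and SEPT2 (0.98). Within the 8 granulosa libraries r with MARCH3 was 0.49 for SEPT9 and 0.87 for SEPT2, and within the 8 cumulus libraries 0.66 and -0.15. Closest to MARCH11 was again SEPT9 (0.97). Closest to MARCH6 was HYDIN (0.95), a gene of the ciliary axoneme, with 0.86 within cumulus and 0.62 within granulosa libraries. Closest to MARCH1 was DMBT1 (0.92), which encodes a secreted scavenger receptor protein, with -0.24 within cumulus and 0.86 within granulosa libraries. Closest to MARCH8 was TGOLN2 (0.83), which encodes a protein of the trans-Golgi network, with 0.88 within cumulus and 0.54 within granulosa libraries. For MARCH2, MARCH4, MARCH5, MARCH7 and MARCH9 the closest entries were KIAA0355 (0.87), KDELC1 (0.88), COL24A1 (0.79), SEPT7 (0.85) and TTLL11 (0.79).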

How the data were processed

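Per the labels' protocols, polyA RNA was copied with the SMART-Seq HT kit, made into Nextera XT libraries and read from a single end for 75 bp, with no record of strand. Reference genes overlap 4 members (MARCH4, MARCH6, MARCH8 and MARCH11), none of them protein-coding, so their counts may hold reads of both genes. The tools named in the submitters' processing notes are FastQC, Trimmomatic, STAR and also DESeq2. Which build, annotation and counter were used is not given in the sources used here. Unnormalized counts per entry were deposited by the authors in a single table, and columns were matched to samples by title. For 6 of 10 members (MARCH1, MARCH3, MARCH4, MARCH5, MARCH7 and MARCH8) an Ensembl entry had counts within 2% or 2 counts in every library, so these reads may stand in the table under 2 entries.

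Tests used edgeR 4.0.16 (R 4.3.3) on the whole table: filterByExpr (minimum count 10, minimum total 15), TMM factors (0.942 to 1.06), robust dispersions, the quasi-likelihood F-test and Benjamini-Hochberg adjustment. Cell types and the difference of side effects were fitted in 16 libraries with 4 group means, sides in the 8 libraries of a cell type. SE was taken as the log2 fold change over the root of F, and intervals use the fit's degrees of freedom. The procedure was tested on simulated data. Alternatives were DESeq2 1.42.0, limma-voom (limma 3.58.1), other scalings, no filter, exact repeats left out, each library left out, and each side alone. Replicate pairs of a group differed by a chi-square per entry of 12.9 to 78.7, where sampling alone gives about 1. All 10 members are named by rule, and members and lists were chosen with earlier results of these data known. Symbols came from RefSeq genes of ARS-UCD2.0, and 2473 entries have a name. No theca, luteal, endothelial or erythrocyte marker was found by name. MUC16, of 5 surface epithelium markers, stood at 0 to 2.09 CPM in cumulus and 0 to 44.3 CPM in granulosa libraries. Its highest level was in ipsilateral granulosa library 3.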

Additional observations from a re-analysis of the deposited data

Results flagged for a closer look

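In 38 sets of 4 libraries, 4 held a library far from the other 3 by Dixon's criterion, and chance gives about 1 in 20. MARCH1 stood at 1.82 CPM in contralateral cumulus library 3, above the others of its group. It had 28 counts there and 22, 23 and 19 in the others. The coefficient of variation in this group was 26.9%, where counting alone gives 20.9%. MARCH3 stood at 39.6 CPM in ipsilateral granulosa library 2, below the others. MARCH5 stood at 29.1 CPM in ipsilateral cumulus library 4, above the others. MARCH8 stood at 57.7 CPM in contralateral cumulus library 1, above the others, and without that library its log2 fold change between the cell types was 0.31 (adjusted p = 0.0197 by edgeR).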

How the results depend on the processing

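No paired analysis was possible because the labels give no replicate numbers that the groups share. Between the cell types no member changed sign in any of 25 alternatives each, and MARCH1, MARCH3 and MARCH6 passed in all of them. MARCH11 passed in each but enters through the granulosa libraries alone, so its calls are not counted as support. Of 250 such values, those of MARCH11 included, 24 lost the call. With ipsilateral libraries alone 6 of the other 9 members passed, 2 higher and 4 lower in cumulus cells, where 44.3% of all entries passed. With contralateral libraries alone 4 of these 9 passed, 2 higher and 2 lower, where 47.6% of all entries passed. The cause was not tested, and these fits have 8 libraries in place of 16. With 1 library left out, 8 to 10 members passed, 3 to 4 higher and 5 to 6 lower, with MARCH11 counted among those lower. Over all entries 10582 to 11055 passed in these fits, against 10858 of 18038 (60.2%) with all libraries.

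Between the sides no member passed in any alternative. Over all entries DESeq2 called 120 in cumulus cells, 1 in granulosa cells and 1 for the difference of side effects, where edgeR called 0 of each. Small values changed sign in some alternatives. In cumulus cells MARCH9 was 0.016 by limma-voom. In granulosa cells without both libraries that stand apart, MARCH4 was -0.0077 and MARCH7 -0.013. For the difference of side effects, MARCH6 was 0.0054 with DESeq2's size factors, 0.0045 by DESeq2 and 0.014 by limma-voom, and MARCH7 was 0.021 without both libraries. The cause was not tested.

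With 1 library left out, log2 values in cumulus cells ran from -0.16 to 0.12 for MARCH1, from -0.29 to 0.023 for MARCH2, from -0.10 to 0.0089 for MARCH7, from -0.17 to 0.11 for MARCH8 and from -0.37 to 0.12 for MARCH9. In granulosa cells they ran from -0.20 to 0.12 for MARCH3, from -0.018 to 0.34 for MARCH4, from -0.074 to 0.17 for MARCH6, from -0.025 to 0.13 for MARCH7 and from -0.56 to 0.017 for MARCH9. For the difference they ran from -0.10 to 0.14 for MARCH6, from -0.15 to 0.0053 for MARCH7 and from -0.16 to 0.49 for MARCH9. MARCH1, MARCH4 and MARCH9 had low counts, 730, 353 and 380 over all libraries. Signs also changed for MARCH3, MARCH6 and MARCH7, with 10068, 29134 and 21138 counts. The part of low counts in these changes was not tested.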
